A study of Mus musculus with 8 samples.

Results

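The genes described here encode the enzymes and receptors through which myeloid cells handle extracellular ATP, its breakdown products and adenosine. They were 7 genes chosen by name (Entpd1, Nt5e, Adora2a, Adora2b, P2rx4, P2rx7 and P2ry6) of 25572 gene identifiers in the count table, and each matched 1 identifier. RNA had been measured in 8 libraries of neutrophils sorted by flow cytometry from PyMT-N tumours carried by C57/B6 mice, each library made from 150 pg of total RNA. The 4 ICAM1-high libraries, cd54+ in their titles, were compared with the 4 ICAM1-low libraries, cd54- in their titles, and both groups carry the replicate numbers 1, 2, 3 and 5. The sorted protein, ICAM1 or CD54, holds leukocytes to other cells through their integrins. No genotype, treatment, age or pooling of animals is given in the labels for either group, nothing further is said of the PyMT-N tumours, and separate animals are not stated for the libraries of either group. The p-values therefore reflect how these libraries vary, which may be partly technical variation.

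Cells release ATP when they are stressed, damaged or activated. On the cell surface CD39, the product of Entpd1, removes phosphates from ATP and ADP to give AMP, and CD73, the product of Nt5e, turns AMP into adenosine. ATP opens the ion channels P2X4 and P2X7 (P2rx4 and P2rx7), UDP stimulates the G protein-coupled receptor P2Y6 (P2ry6), and adenosine acts on the receptors encoded by Adora2a and Adora2b, which raise cyclic AMP and restrain many functions of neutrophils and macrophages. In macrophages P2X7 is known for driving inflammasome activation and interleukin-1 release, and P2Y6 for uptake of particles by microglia.

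P2rx7 and P2rx4 are near neighbours on chromosome 5 of the mouse RefSeq annotation (GRCm38.p6), with the gene model Gm10064 between them, and P2ry6 lies next to P2ry2 on chromosome 7. The authors' data use GRCm39, so the RefSeq table served here for names, neighbours and promoter letters. It held promoter windows for 5 of the 7 genes, of 250 bases before to 50 bases after an annotated start, all of 300 bases. Those of P2rx7 and P2rx4 are shown because both receptor genes had higher values in every ICAM1-high library than in any ICAM1-low library. Capitals mark a PU box, GAGGAA or TTCCTC on the other strand, a short motif that the myeloid factor PU.1 can bind.
P2rx7, first start, chr5:122643677-122643976, plus strand: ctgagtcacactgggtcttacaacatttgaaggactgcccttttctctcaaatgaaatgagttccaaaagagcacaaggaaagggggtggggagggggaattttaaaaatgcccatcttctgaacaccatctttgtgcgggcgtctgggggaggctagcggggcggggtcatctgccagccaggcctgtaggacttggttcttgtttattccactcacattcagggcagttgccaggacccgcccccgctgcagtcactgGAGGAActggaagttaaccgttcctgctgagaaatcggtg
P2rx7, second start, chr5:122650133-122650432, plus strand: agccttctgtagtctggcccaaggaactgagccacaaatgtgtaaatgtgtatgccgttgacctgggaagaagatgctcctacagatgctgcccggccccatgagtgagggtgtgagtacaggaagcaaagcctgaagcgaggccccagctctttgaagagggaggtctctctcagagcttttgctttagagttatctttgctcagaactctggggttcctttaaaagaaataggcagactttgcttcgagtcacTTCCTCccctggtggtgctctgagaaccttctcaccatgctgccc
P2rx4, chr5:122707294-122707593, plus strand: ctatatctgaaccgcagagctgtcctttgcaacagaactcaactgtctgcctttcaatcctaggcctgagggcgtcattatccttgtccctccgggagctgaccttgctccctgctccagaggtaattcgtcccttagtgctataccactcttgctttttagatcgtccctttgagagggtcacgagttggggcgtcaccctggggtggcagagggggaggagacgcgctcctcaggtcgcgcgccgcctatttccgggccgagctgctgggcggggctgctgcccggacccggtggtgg
Each P2rx7 window held 1 PU box, beginning 10 bases past the first start and 5 bases past the second. The P2rx4 window held none of these letters. Of the windows not shown, the second of Entpd1 held 2 PU boxes, and the first of Entpd1 and those of Nt5e and Adora2b held none. Of 32851 windows of this length over all genes, 28.3% held a PU box on either strand. The GC box GGGCGG, searched on both strands, was found 2 times in the first P2rx7 window, once in that of P2rx4 and in 35.7% of all windows. It was also found 4 times in the Nt5e window and 6 times in that of Adora2b, but in neither Entpd1 window. The P2rx4 window was richer in CpG, with 18 CpG pairs against 8 and 4 in those of P2rx7 and a median of 7 over all windows. These are matches of letters, and binding was not measured.

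Estimated counts totalled 15940328 to 21825096 per library, and a floor of 3 counts, which allows for counting error alone, equalled 0.121 to 0.263 CPM (counts per 1000000, over library sizes scaled by TMM). Icam1, the gene of the sorted protein, stood at 48.2, 58.4, 42.4 and 122 CPM in ICAM1-high replicates 1, 2, 3 and 5, against 18.7, 9.23, 4.31 and 138 CPM in ICAM1-low replicates 1, 2, 3 and 5. More Icam1 was thus found in the library labelled ICAM1-low replicate 5 than in any ICAM1-high library, and the gene was not past the threshold (log2 fold change 0.67 ± 0.92, SE, n = 4 against 4, edgeR adjusted p = 0.754). Whether the label of that library is right could not be settled from these data. Its neutrophil marker sum of 31096 CPM, macrophage marker sum of 1174 CPM and P2rx7 level of 4.83 CPM lay on the side of the other ICAM1-low libraries. Over all genes tested, however, its log2 CPM correlated best with ICAM1-high replicate 5 (r = 0.73). The correlation was 0.67 to 0.71 with the other ICAM1-high libraries, against 0.60 to 0.69 with the other ICAM1-low libraries. Its fibroblast marker sum of 1797 CPM lay within the ICAM1-high range of 459 to 1986 CPM. Of 15 neutrophil markers 7 of 13 tested were lower in ICAM1-high libraries, where they summed to 1504 to 4409 CPM, against 6645 to 31096 CPM in ICAM1-low libraries. The precursor gene Elane was at 0 to 0.821 CPM in ICAM1-high libraries, against 0 to 0.356 CPM in ICAM1-low libraries, and Mpo was at 8.36 CPM in ICAM1-high replicate 3 and at 0 in the other 7 libraries. Of 15 macrophage markers 10 of 14 tested were higher, with sums of 5701 to 16298 CPM in ICAM1-high libraries, against 816 to 1174 CPM in ICAM1-low libraries. Vsig4, which did not pass the filter on low counts, was at 0 in all 4 ICAM1-low libraries and in ICAM1-high replicate 3. In the other ICAM1-high libraries it was at 0.773 to 3.87 CPM. In such bulk samples a gene's level cannot separate the number of cells that express it from the RNA per cell.

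P2rx7 was higher in ICAM1-high libraries, and the values of P2rx4 and P2ry6 lay above those of ICAM1-low libraries without passing the threshold, while the ectoenzymes Entpd1 and Nt5e had no common direction and the adenosine receptors had the lowest mean levels of the 7 genes. Of 6 genes that passed the filter on low counts, P2rx7 was past the threshold as higher and none as lower (quasi-likelihood test of edgeR, adjusted p under 0.05 after Benjamini and Hochberg). Over all 13575 genes tested 1.5% were called, 1.22% as higher and 0.273% as lower. In P2rx7, P2rx4 and P2ry6 every ICAM1-high library lay above every ICAM1-low library, a pattern that 7.51% of all genes tested showed. Adora2b did not pass the filter and was not tested.

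**Figure D1:**
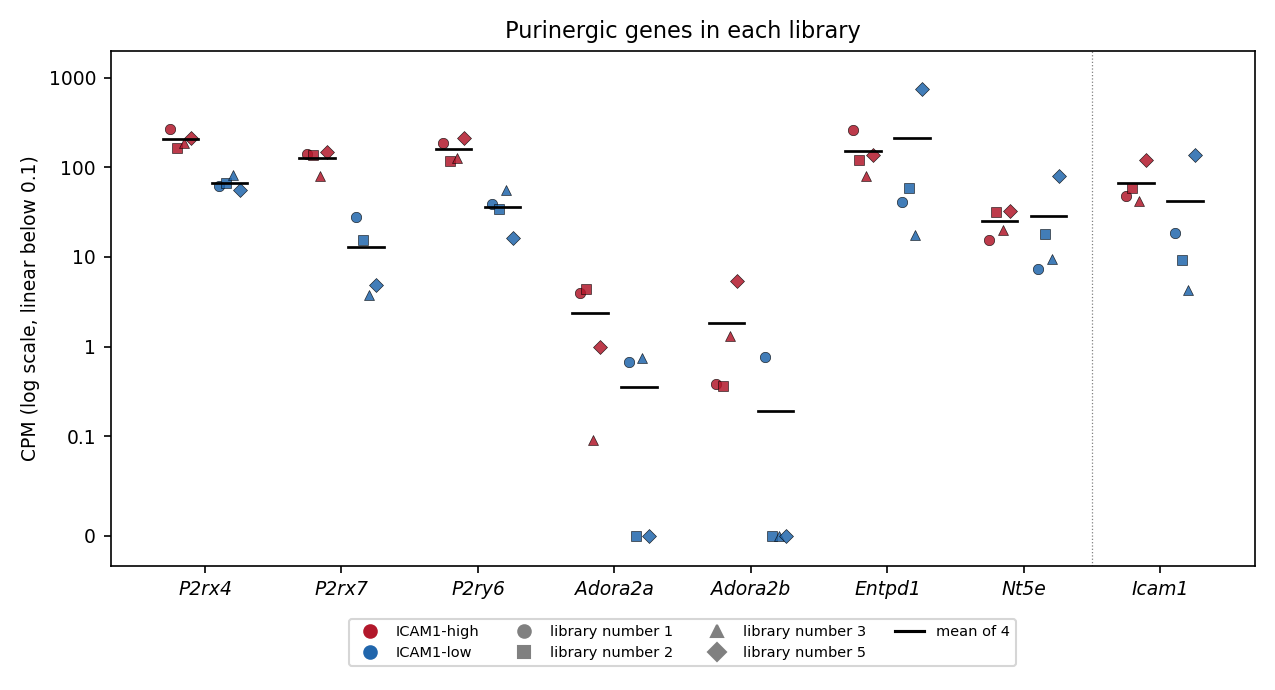
Level of each gene in every library, in CPM on a log axis that is linear below 0.1, with ICAM1-high libraries (red) left of ICAM1-low libraries (blue), 1 symbol shape per library number and a bar at the mean of 4. P2rx4, P2rx7 and P2ry6 do not overlap between the groups, and the library labelled ICAM1-low replicate 5 (blue diamond) stands above all others for Entpd1, Nt5e and Icam1.

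P2rx7, which encodes the high-threshold ATP channel of macrophages, was measured at 143, 138, 79.5 and 147 CPM in ICAM1-high replicates 1, 2, 3 and 5, against 28.3, 15.4, 3.78 and 4.83 CPM in ICAM1-low replicates 1, 2, 3 and 5. All 4 ICAM1-high libraries lay above all 4 ICAM1-low libraries, with ICAM1-high replicate 3 lowest in its group and ICAM1-low replicate 1 highest in the other. Its mean was 127 ± 31.7 CPM over the ICAM1-high group, against 13.1 ± 11.4 CPM over the ICAM1-low group (SD, n = 4 each). P2rx7 rose by 3.28 ± 0.68 on the log2 scale (SE, edgeR adjusted p = 0.0429), a 9.69-fold difference. Its direction held in all 18 alternative fits, with log2 fold changes of 2.93 to 3.98, but the adjusted p passed the threshold in 10 of them and ranged from 9.25e-05 to 0.129. It missed the threshold when any 1 library other than the one labelled ICAM1-low replicate 5 was left out, and without that library it was 2.99 on the log2 scale (edgeR adjusted p = 0.0359).

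P2rx4, which encodes the ATP channel that sits largely on lysosomes of macrophages, was the most evenly spread of the 7 genes. It stood at 269, 165, 188 and 212 CPM in ICAM1-high replicates 1, 2, 3 and 5, against 62.7, 66.4, 81.9 and 56.1 CPM in ICAM1-low replicates 1, 2, 3 and 5. Even the lowest ICAM1-high library, replicate 2, lay well above the highest ICAM1-low library, replicate 3. The log2 fold change was 1.64 ± 0.38 (SE, n = 4 against 4), with an edgeR adjusted p of 0.0592 that missed the threshold. It passed in 6 of 18 alternative fits, among them DESeq2 (adjusted p = 0.0034) and limma-voom with sample weights (adjusted p = 0.024) and the fit without the library labelled ICAM1-low replicate 5 (edgeR adjusted p = 0.0427).

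P2ry6, the UDP receptor gene, stood at 187, 117, 128 and 212 CPM in ICAM1-high replicates 1, 2, 3 and 5, against 38.6, 34.6, 56.4 and 16.3 CPM in ICAM1-low replicates 1, 2, 3 and 5. Again the groups did not overlap, and the library labelled ICAM1-low replicate 5 was the lowest. The log2 fold change was 2.14 ± 0.48 (SE, n = 4 against 4), and the edgeR adjusted p of 0.0529 missed the threshold. It passed in 8 of 18 alternative fits, including DESeq2 (adjusted p = 0.00162), limma-voom (adjusted p = 0.0193) and the fit without the library labelled ICAM1-low replicate 5 (edgeR adjusted p = 0.0346). P2rx7, P2rx4 and P2ry6 were all 3 past the threshold with DESeq2, limma-voom, upper-quartile scaling, library sizes only, the 10 CPM filter and without that library. The share of all genes called in those fits was 9.56%, 6.31%, 1.83%, 2.13%, 2.82% and 4.05% in the same order, of which 4.53%, 3.54%, 1.56%, 1.9%, 2.11% and 2.36% of genes were called higher.

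Macrophage markers differed between the same libraries as these 3 receptor genes, in the same direction, with the sums given above. Of T and NK cell markers 3 of 10 tested were also called higher in the ICAM1-high group, Cd4, Il2ra and Ctla4. Their list summed to 105 to 389 CPM in ICAM1-high libraries, against 3.03 to 39.3 CPM in ICAM1-low libraries. Cd3g, Trac and Cd8a were not called, and Cd3d and Cd3e were under the filter. In ICAM1-high replicate 1 Il2ra stood at 51.0 CPM and Ctla4 at 59.7 CPM. The same library had Trac at 34.8 CPM and Cd3g at 6.99 CPM, but Cd3d at 0.285 and Cd3e at 0.0475 CPM. Of dendritic cell markers 2 of 7 tested were called higher, Cd74 and H2-Ab1. The list summed to 2026 to 4900 CPM in ICAM1-high libraries, with Cd74 at 1562 to 3760 CPM. In ICAM1-low libraries the sum was 124 to 510.5 CPM, with Cd74 at 82.2 to 276 CPM. Xcr1, Itgax, Zbtb46, Ccr7 and Siglech were not called, and Flt3, Clec9a and Cd209a were under the filter. Of the 12 T and NK cell markers, 7 were at 0 in the library labelled ICAM1-low replicate 5, where Cd3g was the highest at 2.02 CPM. In ICAM1-low replicate 3, 5 were at 0, while the NK cell marker Klrb1c stood at 31.5 CPM, its highest value in the 8 libraries. The monocyte markers went both ways: Ccr2, Cx3cr1 and Ms4a4c were called higher and Ly6c2 lower. The monocyte list summed to 2774 to 5218 CPM in ICAM1-high libraries, against 7062 to 15160 CPM in ICAM1-low libraries. Fn1 held the largest part of that sum, at 1736 to 3527 CPM in ICAM1-high libraries, against 6347.5 to 13876 CPM in ICAM1-low libraries. The lower sum rested on this gene, which was not called. None of 6 tested B and plasma cell markers was called, although all 6 had positive log2 fold changes, with sums of 274 to 2056 CPM in ICAM1-high libraries, against 46.6 to 414 CPM in ICAM1-low libraries. The part of these cells in the differences of P2rx7, P2rx4 and P2ry6 was not tested. Within the ICAM1-high group the macrophage sum was highest in replicate 5, at 16298 CPM, where P2rx7 and P2ry6 were also highest. P2rx7 was nearly as high in replicates 1 and 2, at 143 and 138 CPM against 147 CPM, with macrophage sums of 8839 and 5701 CPM. P2rx4 was highest in replicate 1.

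**Figure D2:**
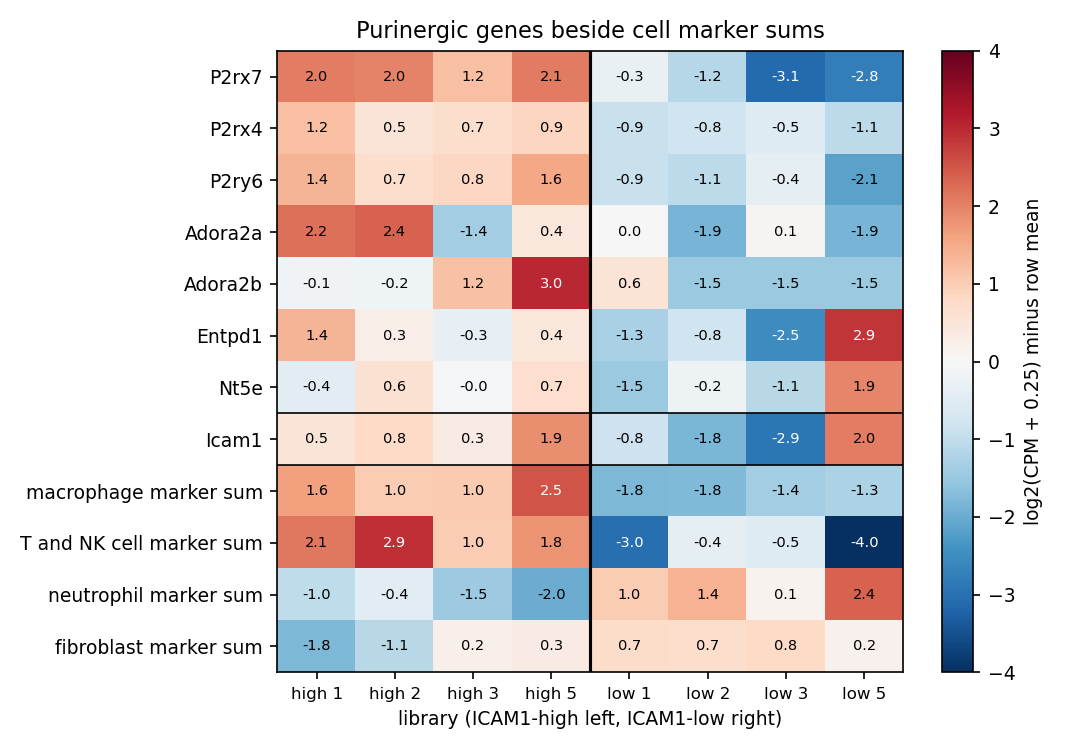
Each gene and marker sum in the 8 libraries, as log2(CPM + 0.25) minus the mean of its row, with ICAM1-high libraries left of the vertical line. P2rx7, P2rx4, P2ry6, the macrophage sum and the T and NK cell sum are positive in all ICAM1-high and negative in all ICAM1-low libraries. Entpd1, Nt5e and Icam1, in contrast, are strongly positive in the library labelled ICAM1-low replicate 5.

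Entpd1, which encodes CD39, is carried by many leukocytes, among them regulatory T cells, macrophages and neutrophils, and by endothelium. CD39 transcripts reached 263, 121, 79.9 and 138 CPM in ICAM1-high replicates 1, 2, 3 and 5, against 41.0, 58.7, 17.6 and 739.5 CPM in ICAM1-low replicates 1, 2, 3 and 5. All 4 ICAM1-high libraries lay above 3 of the ICAM1-low libraries and below the one labelled replicate 5. With all libraries the log2 fold change was -0.51 ± 0.98 (SE, n = 4 against 4, edgeR adjusted p = 0.833). Without the library labelled ICAM1-low replicate 5 it was 1.94 ± 0.56 and missed the threshold (edgeR adjusted p = 0.075). With all libraries it was also positive in limma-voom with sample weights (1.33, adjusted p = 0.188) and with a replicate term in edgeR (1.10, adjusted p = 0.561), so its direction depended on that library and on the model.

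Nt5e, which encodes CD73, showed the same library at the top but smaller differences. It stood at 15.4, 31.8, 20.2 and 32.7 CPM in ICAM1-high replicates 1, 2, 3 and 5, against 7.28, 18.1, 9.49 and 79.9 CPM in ICAM1-low replicates 1, 2, 3 and 5. Here the groups overlapped even without replicate 5, since ICAM1-low replicate 2 exceeded ICAM1-high replicate 1. The log2 fold change was -0.19 ± 0.76 with all libraries (SE, n = 4 against 4, edgeR adjusted p = 0.924) and 1.12 ± 0.60 without the library labelled ICAM1-low replicate 5 (edgeR adjusted p = 0.324).

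As to other cell types, the library labelled ICAM1-low replicate 5 had the highest sum of neutrophil markers, 31096 CPM, and of epithelial and tumour markers, 68.5 CPM, against 0.319 to 24.5 CPM in the other 7. Krt8 at 39.6 CPM, Krt18 at 24.7 CPM and Krt19 at 3.20 CPM held nearly all of that last sum. Epcam and Krt14 were at 0 in that library. Cdh1 was at 1.05 CPM there, against 4.88 to 15.5 CPM in ICAM1-high libraries. The T and NK cell sum of the library labelled ICAM1-low replicate 5, 3.03 CPM, was the lowest of all. Its macrophage sum was 1174 CPM and its endothelial sum 25.8 CPM, within the 1.60 to 65.7 CPM of the other libraries. The part of these cells in its Entpd1 and Nt5e levels was not tested.

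**Figure D3:**
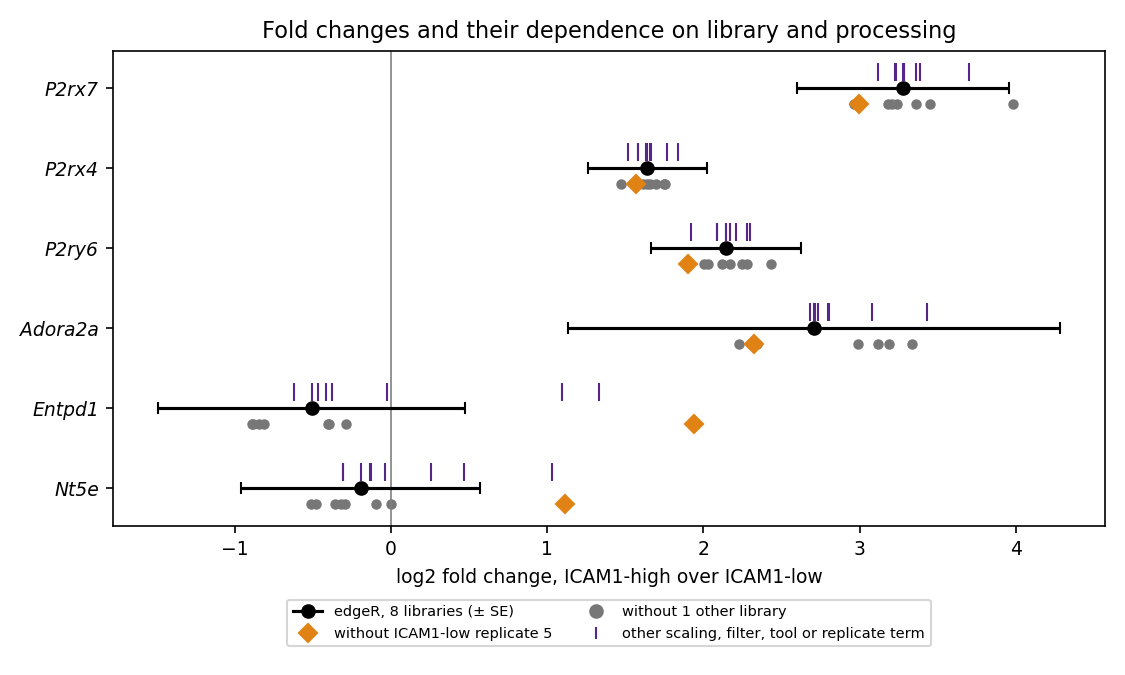
Log2 fold change of ICAM1-high over ICAM1-low for the 6 tested genes, with black points and bars for edgeR on 8 libraries (± SE), orange diamonds without the library labelled ICAM1-low replicate 5, grey points without 1 other library and purple ticks for other scalings, filters, tools and the replicate term. P2rx7, P2rx4, P2ry6 and Adora2a stay above 0 in each fit shown, while Entpd1 and Nt5e change side when that library is left out.

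The adenosine receptors were scarce. Adora2a, which encodes the main adenosine receptor of neutrophils, was estimated at 84.0, 110.0, 2 and 18 counts in ICAM1-high replicates 1, 2, 3 and 5, against 13, 0, 14 and 0 counts in ICAM1-low replicates 1, 2, 3 and 5. Most of its signal came from ICAM1-high replicates 1 and 2, at 3.99 and 4.43 CPM, and ICAM1-high replicate 3 was under the floor of 3 counts. The groups overlapped, and the log2 fold change of 2.71 ± 1.57 was not past the threshold (SE, n = 4 against 4, edgeR adjusted p = 0.411). Adora2b, which encodes a receptor of lower affinity for adenosine, had 8, 9, 27 and 97 counts in ICAM1-high replicates 1, 2, 3 and 5, against 15, 0, 0 and 0 counts in ICAM1-low replicates 1, 2, 3 and 5. Its highest level, 5.36 CPM, was in ICAM1-high replicate 5, and its difference was not tested, since it did not pass the filter.

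The 7 genes could be ordered by CPM per kilobase of the gene length in the authors' table. In ICAM1-high libraries P2rx4 averaged 122 ± 26.3 and P2ry6 102 ± 29.2 CPM per kilobase (SD, n = 4), with overlapping ranges. Entpd1 at 52.7 ± 27.6 and P2rx7 at 42.9 ± 10.7 CPM per kilobase overlapped too, and Entpd1, at up to 91.9, reached into the range of P2ry6, which began at 74.2. Nt5e followed at 6.67 ± 2.29, below every P2rx7 value, and then Adora2a at 3.21 ± 2.91 and Adora2b at 1.19 ± 1.53 CPM per kilobase, which did not differ beyond their spread. In ICAM1-low libraries Entpd1 had the highest mean only through 1 library (74.9 ± 123 CPM per kilobase, range 6.16 to 258.6), followed by P2rx4 at 39.2 ± 6.43, P2ry6 at 23.1 ± 10.4, Nt5e at 7.64 ± 9.18, P2rx7 at 4.43 ± 3.87, Adora2a at 0.476 ± 0.551 and Adora2b at 0.124 ± 0.247 CPM per kilobase. P2rx7 thus stood above Nt5e in every ICAM1-high library, whereas in the ICAM1-low group the ranges of these genes overlapped.

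Within a library the make-up of the 7 genes can be read without scaling between libraries. Entpd1 made up 79.6% of their summed CPM per kilobase in the library labelled ICAM1-low replicate 5, against 6.49% to 22.4% in the other 7 libraries. P2rx7 made up 10.7% to 17.0% in ICAM1-high libraries and 0.504% to 10.8% in ICAM1-low libraries, so that the groups met closely at ICAM1-high replicate 3 and ICAM1-low replicate 1. The ratio of P2rx7 to P2rx4 per kilobase was 0.244 to 0.482 in ICAM1-high and 0.0266 to 0.26 in ICAM1-low libraries, and the ratio of P2ry6 to P2rx4 was 0.737 to 1.08 in ICAM1-high and 0.313 to 0.743 in ICAM1-low libraries. Both pairs of ranges overlapped slightly. The ratio of Entpd1 to Nt5e was 22.4 in ICAM1-high replicate 1 and 5.01 to 5.54 in the other ICAM1-high libraries, against 2.44 to 12.2 in ICAM1-low libraries.

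Likeness of pattern was measured as the root-mean-square distance of log2 CPM over the 8 libraries, each gene centred on its own mean, among 10578 genes of sufficient level. Such distances are a description, since all genes share the libraries and their depth. The closest pair among the 7 genes was P2rx4 and P2ry6, 0.48 log2 units apart, and Entpd1 was 0.91 from Nt5e but 2.30 from P2rx7. Nearest to P2rx4 were the sorting nexin gene Snx2 (0.18) and the acetyltransferase subunit gene Naa15 (0.19). Nearest to P2rx7 were Tnfrsf11a, which encodes the receptor RANK (0.49), and the integrin gene Itga9 (0.58). Nearest to P2ry6 were the fatty acid transporter gene Slc27a1 (0.24) and Rab3il1 (0.28). Entpd1 was closest to the interferon-stimulated gene Oasl1 (0.35) and to Lcp2, which encodes the adaptor SLP-76 (0.41), and Nt5e to the signalling gene Malt1 (0.29) and to Mysm1 (0.32). For the sparse Adora2a the nearest genes, Zfp326 (0.72) and Ndufab1 (0.96), were farther away than those of the other 5 genes tested.

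The wider pathway was followed in 8 lists holding 69 genes, of which 64 were in the table and 60 were tested. Gpr34 was called higher and none was called lower, a share near the 1.22% and 0.273% of all genes. The median log2 fold change of the 60 genes was -0.29, against -0.07 for all genes tested. In 6 of the 60 every ICAM1-high library lay above every ICAM1-low library and in 3 every one lay below, against 7.51% and 3.89% of all genes.

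**Figure D4:**
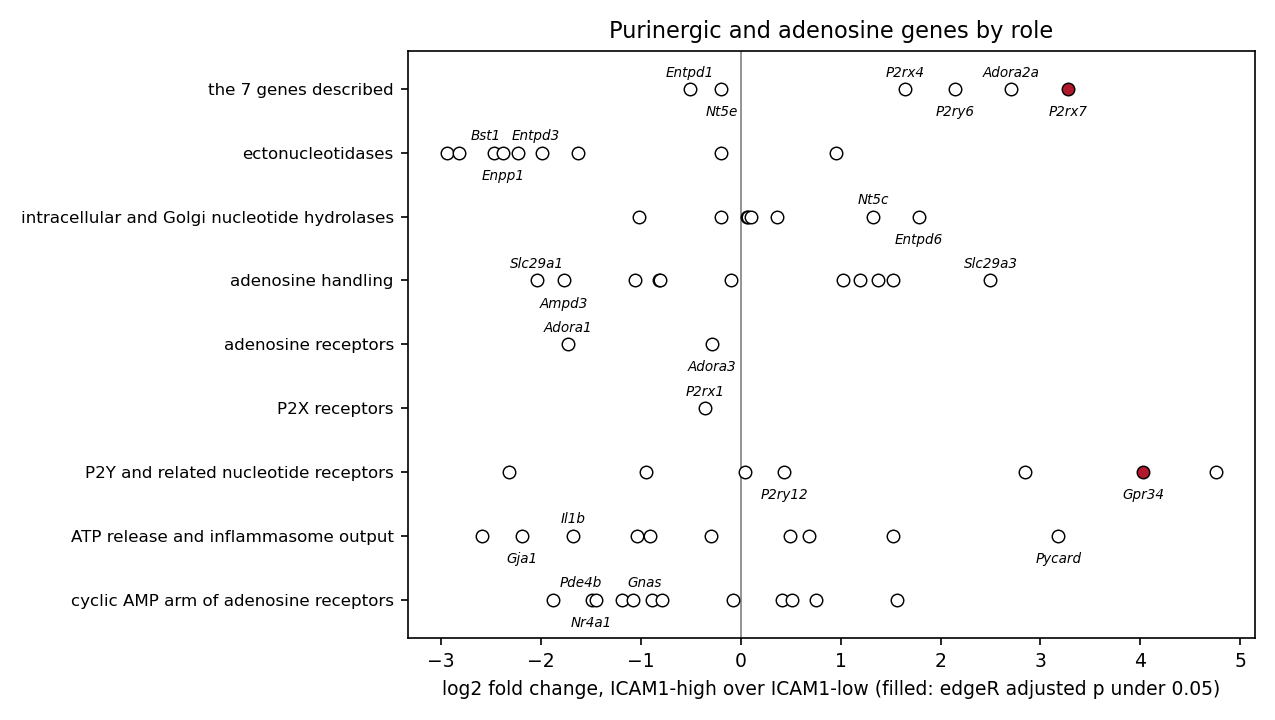
Log2 fold change of ICAM1-high over ICAM1-low for the 7 genes described and the other purinergic and adenosine genes by role, 1 point per tested gene, filled where the edgeR adjusted p was under 0.05. P2rx7 and Gpr34 are the filled points, and 8 of the 9 tested ectonucleotidases lie left of 0.

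Among other receptors, Gpr34, a lysophosphatidylserine receptor related to P2Y12 in sequence, stood at 26.2, 42.2, 66.0 and 43.6 CPM in ICAM1-high replicates 1, 2, 3 and 5, against 1.49, 4.39, 1.17 and 3.86 CPM in ICAM1-low replicates 1, 2, 3 and 5. Its groups were far apart, and Gpr34 rose by 4.03 ± 0.68 on the log2 scale (SE, n = 4 against 4, edgeR adjusted p = 0.0187). It stayed past the threshold in 14 of 18 alternative fits (adjusted p from 7.72e-08 to 0.0668) and missed it without ICAM1-high replicate 2, 3 or 5 or ICAM1-low replicate 1. P2ry12, the ADP receptor gene of platelets and microglia, had the highest mean of its list per kilobase over all 8 libraries, although in the ICAM1-low group P2ry13 was higher, at 27.1 against 24.0 CPM per kilobase. P2ry12 was 48.3 to 89.4 CPM in ICAM1-high libraries, against 7.12 to 109 CPM in ICAM1-low libraries, with overlapping groups (log2 fold change 0.44 ± 0.70, edgeR adjusted p = 0.793). Adora3 and Adora1, the A3 and A1 receptor genes, averaged 9.31 ± 5.02 and 0.852 ± 1.09 CPM in ICAM1-high libraries, against 11.4 ± 15.6 and 2.82 ± 1.83 CPM in the ICAM1-low group (SD, 4 libraries each). Neither was called, and the values of Adora3 cannot be told apart from those of Tmigd3, listed under the same identifier. Of the other P2X genes P2rx1 was tested, at 0.0806 to 2.60 CPM in ICAM1-high libraries, against 0.439 to 4.20 CPM in ICAM1-low libraries, and P2rx3, P2rx5 and P2rx6 were under the filter.

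None of 9 tested ectonucleotidase genes was called, although 8 had negative values, with a median log2 fold change of -2.23. Enpp1, which splits ATP to AMP and pyrophosphate, stood at 48.2, 52.0, 129 and 33.8 CPM in ICAM1-high replicates 1, 2, 3 and 5, against 455, 351, 473.5 and 94.9 CPM in ICAM1-low replicates 1, 2, 3 and 5. Its groups overlapped through the library labelled ICAM1-low replicate 5 (log2 fold change -2.38 ± 0.61, SE, edgeR adjusted p = 0.0814). It passed the threshold as lower in 6 of 18 alternative fits, among them DESeq2 (adjusted p = 0.00293), limma-voom (adjusted p = 0.0123) and the fit without that library (edgeR adjusted p = 0.0214). Bst1, which encodes the NAD-consuming surface enzyme CD157, averaged 38.7 ± 10.4 CPM in the ICAM1-high group, against 214 ± 186 CPM in the ICAM1-low group (SD, 4 libraries each, log2 fold change -2.47 ± 0.67, edgeR adjusted p = 0.0975), and passed in 4 of 18 alternative fits. Entpd3, a relative of Entpd1, had the highest mean of this list per kilobase over all 8 libraries, through the library labelled ICAM1-low replicate 5. In the ICAM1-low group Enpp2, which encodes autotaxin, had a higher mean, 171 CPM per kilobase, against 164 CPM per kilobase for Entpd3 (log2 fold change of Enpp2 -2.94 ± 1.04, edgeR adjusted p = 0.19, named after its values were seen). Entpd3 was 78.3 to 170 CPM in ICAM1-high libraries, against 125 to 1568 CPM in ICAM1-low libraries, with that library again at the top (log2 fold change -2.23 ± 0.76, edgeR adjusted p = 0.172). Fibroblast markers, of which 1 of 8 tested was lower, summed to 459 to 1986 CPM in ICAM1-high libraries, against 1797 to 2780 CPM in ICAM1-low libraries, and their part in these values was not tested.

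The nucleoside transporters differed from each other. Slc29a3, which moves nucleosides across lysosomal membranes, stood at 243, 158, 154 and 168 CPM in ICAM1-high replicates 1, 2, 3 and 5, against 19.1, 11.3, 61.7 and 35.7 CPM in ICAM1-low replicates 1, 2, 3 and 5. Its groups did not overlap, but the edgeR adjusted p of 0.0518 missed the threshold (log2 fold change 2.50 ± 0.56, SE, n = 4 against 4), which it passed in 9 of 18 alternative fits. Slc29a1, the plasma membrane adenosine transporter and the highest of its list per kilobase, averaged 628 ± 313 CPM in the ICAM1-high group, against 2577 ± 1703 CPM in the ICAM1-low group (SD, 4 libraries each, log2 fold change -2.04 ± 0.72, edgeR adjusted p = 0.188), and passed in 4 of 18 alternative fits. Ampd3, an AMP deaminase gene, was lower in every ICAM1-high library, at 15.9 to 61.9 CPM, than in any ICAM1-low library, at 62.9 to 197 CPM, without passing the threshold (log2 fold change -1.77 ± 0.55, edgeR adjusted p = 0.141). None of 11 genes of adenosine handling and none of 8 intracellular and Golgi nucleotide hydrolases was called, and the smallest p of the hydrolases belonged to Nt5c (1.32 ± 0.67 on the log2 scale, edgeR adjusted p = 0.342) and Entpd6 (1.78 ± 0.92, edgeR adjusted p = 0.353).

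None of 10 tested genes of ATP release and inflammasome output and none of 12 tested genes of the cyclic AMP arm was called. Pycard, which encodes the inflammasome adaptor ASC, stood at 43.0, 48.2, 5.33 and 34.6 CPM in ICAM1-high replicates 1, 2, 3 and 5, against 3.10, 6.74, 1.92 and 2.69 CPM in ICAM1-low replicates 1, 2, 3 and 5. ICAM1-high replicate 3 fell within the ICAM1-low range, and the log2 fold change of 3.18 ± 0.79 missed the threshold (SE, n = 4 against 4, edgeR adjusted p = 0.0742). Il1b, the inflammasome substrate gene, was 1424 to 2513 CPM in ICAM1-high libraries, against 1648 to 18048 CPM in ICAM1-low libraries, with its maximum in the library labelled ICAM1-low replicate 5 (log2 fold change -1.68 ± 0.74, edgeR adjusted p = 0.282). Gja1, which encodes the ATP-releasing channel protein connexin 43, averaged 39.5 ± 20.3 CPM in the ICAM1-high group, against 181 ± 99.9 CPM in the ICAM1-low group (SD, 4 libraries each, log2 fold change -2.19 ± 0.65, edgeR adjusted p = 0.128), and passed in 5 of 18 alternative fits. In the cyclic AMP arm, the phosphodiesterase gene Pde4b, the nuclear receptor gene Nr4a1 and Gnas, which encodes the stimulatory G protein, stood at -1.45 ± 0.62, -1.49 ± 0.65 and -1.08 ± 0.54 on the scale of log2 fold changes (SE, 4 libraries a group). Their adjusted p-values in edgeR ran from 0.267 to 0.343, and their groups overlapped.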

How the data were processed

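RNA was sequenced from 8 libraries, 4 ICAM1-high and 4 ICAM1-low, prepared from 150 pg of RNA with the QIAseq FX kit for single-cell RNA per the labels' protocols. Trim Galore 0.6.6, Salmon 1.9.0 and the build GRCm39 are named in the submitters' processing notes, and no annotation, setting or strand handling is given in those sources. The authors deposited estimated counts per gene and a gene length column, and each sample's description names its column per the labels. Of 25669 rows, 25572 identifiers were kept once, since 88 were listed under several symbols with the same values, and 6482 rows listed by identifier took a symbol from the reference table of names. Estimated counts were rounded for the models.

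Genes were filtered with filterByExpr (13575 kept), scaled by TMM and tested with edgeR 4.0.16 in R 4.3.3 (glmQLFit and glmQLFTest, robust), with 1 term for the group and with Benjamini-Hochberg adjustment over all genes tested. The standard error is the log2 fold change divided by the square root of F. The fits were tested on simulated data. Alternatives were 3 other scalings, DESeq2 1.42.0, limma-voom (limma 3.58.1), 2 other filters, a replicate term, all rows as deposited, and leaving out each library or both libraries numbered 5. The genes, lists and alternatives were chosen with earlier results of these data known.

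Named pathway genes were, per list, those past the threshold, otherwise the 2 with the smallest p, and the highest by CPM per kilobase. Likeness was searched among genes whose average log2 CPM reached 2 (prior count 2, predicted genes, pseudogenes and receptor segments left out), and the 2 nearest per gene are named. No molecular identifiers are mentioned in the sources used here, so counts need not equal molecules.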

Additional observations from a re-analysis of the deposited data

Results flagged for a closer look

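In each group of 4, a library was singled out when its gap to the nearest of the other 3, divided by the range of the group, exceeded the 95% critical value of Dixon's test. For independent, normally distributed values chance alone gives this in about 1 of 20 groups, and 10 of 74 groups met it. These values were CPM without a log transform, and the groups shared the same libraries, so the 2 shares cannot be compared. The library labelled ICAM1-low replicate 5 stood apart for Entpd1 (739.5 CPM, next 58.7), Nt5e (79.9, next 18.1), Icam1 (138, next 18.7), Entpd3 (1568, next 352), Il1b (18048, next 3037) and the sum of epithelial and tumour markers (68.5, next 8.30). That sum was mostly Krt8 and Krt18, with Epcam at 0. In ICAM1-high replicate 3 P2rx7 was low (79.5 CPM, next 138), and in ICAM1-high replicate 1 Slc29a3 was high (243 CPM, next 168). ICAM1-low replicate 2 stood apart for P2rx1 (4.20 CPM, next 0.692), which is few counts, and ICAM1-high replicate 5 for the sum of dendritic cell markers (4900 CPM, next 2186).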

How the results depend on the processing

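P2rx7, P2rx4, P2ry6 and Adora2a kept their direction in every alternative that tested them. The number of the 7 genes past the threshold, 1 of 6 tested, was 3 with upper-quartile scaling, library sizes only, DESeq2, limma-voom and the 10 CPM filter, 2 without a filter and with the replicate term, 0 without both libraries numbered 5, and 0 to 3 when 1 library was left out. P2rx4 passed at 1.77 (upper quartile), 1.84 (library sizes only), 1.58 (DESeq2), 1.52 (limma-voom) and 1.66 (10 CPM filter) on the log2 scale, and ranged from 1.47 to 1.75 when 1 library was left out. P2ry6 passed at 2.28, 2.30, 2.09, 1.92 and 2.17 in the same fits, at 2.15 without a filter and at 2.21 with the replicate term, and ranged from 1.90 to 2.43. P2rx7 ranged from 2.97 to 3.98 when 1 library was left out and missed the threshold at 2.93 without both libraries numbered 5.

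Entpd1 turned positive with limma-voom (1.33), with the replicate term (1.10) and without both libraries numbered 5 (1.99), and ranged from -0.89 to 1.94 when 1 library was left out, the upper end without the library labelled ICAM1-low replicate 5. Nt5e turned positive with library sizes only (0.26), limma-voom (1.03), the replicate term (0.47) and without both libraries numbered 5 (0.98), and ranged from -0.51 to 1.12. Icam1 ranged from 0.29 to 2.64. DESeq2 gave no adjusted p for Entpd1, Icam1 or Lcp2. Other genes that changed sign were Adora3, at 0.14 with library sizes only, 0.99 with limma-voom, 0.77 with the replicate term, 1.36 without both libraries numbered 5 and -0.67 to 1.32 with 1 library left out, and P2rx1, at 0.19 with the replicate term and -1.12 to 0.99 with 1 library left out. In the same order of these settings Oasl1 stood at 0.25, 1.76, 1.39, 2.43 and -0.61 to 2.54, Lcp2 at 0.31, 1.10, 0.84, 1.57 and -0.47 to 1.58, with 0.0015 under upper-quartile scaling, and Mysm1 at 0.24, 0.89, 0.39, 0.81 and -0.52 to 0.83. Apart from the leave-outs, which use fewer libraries, the cause was not tested.

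Over all genes 203 were called, against 1233 with DESeq2, 856 with limma-voom, 365 without a filter, 541 with the replicate term, 409 without both libraries numbered 5 and 4 to 578 with 1 library left out. Of the 60 pathway genes 1 was called, against 2 with upper-quartile scaling, library sizes only and the 10 CPM filter, 13 with DESeq2 (5 higher and 8 lower), 7 with limma-voom, 5 without a filter and with the replicate term, 6 without both libraries numbered 5 and 0 to 6 with 1 library left out. The titles do not say whether a shared number marks a shared animal or tumour. Deviations of same-numbered libraries correlated across genes at -0.15, 0.12, 0.15 and 0.38 for numbers 1, 2, 3 and 5, so 3 of 4 pairs but not all exceeded 0.1, and not every library correlated best with its own number. Such correlations over 4 libraries a group cannot show that the libraries were unpaired, and pairing by number was not settled. The main fit did not treat them as paired. With the replicate term P2rx7 stood at 3.70 on the log2 scale (edgeR adjusted p = 0.0102). Over all genes the median log2 fold change was -0.07 with TMM, 0.06 with upper-quartile scaling and 0.17 with library sizes only, so changes are relative to the TMM scale. Counts of 0 to 110.0 per library limit what can be said of Adora2a and Adora2b.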
